A study of Mus musculus with 28 samples.

Results

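Genes of the intestinal epithelium were followed through a chemical reprogramming series in mouse cells. The members are Cdx1, Cdx2, Vil1, Fabp2, Cdh17, Lgals4, Muc13, Dmbt1, Tff3 and Zg16, which are 10 of the 31673 genes of the series tables, and each was found by its symbol. They were selected on their measured levels across the 9 groups of these libraries, so their levels are given as a description without a test. No sample of intestine was measured, and the name of the set refers to where these genes are known to be expressed.

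RNA was sequenced in 28 libraries of 9 groups, made to ask whether small molecules can turn fibroblasts into endoderm progenitors and those into hepatocyte-like cells. The chemicals and their doses are not stated in the sources used here. All mice carried an Oct4-GFP transgene, a reporter of pluripotency. MEF_ciHep (3 libraries) are chemically induced hepatocyte-like cells made from MEF-derived ciEPCs at passage 3 to 10, and MNF_ciHep (2 libraries) are the same from MNF-derived ciEPCs at passage 3 to 10. MEF_ciEPC (10 libraries) are chemically induced endoderm progenitor cells from embryonic fibroblasts, in 2 numbered series that run from passage 2 to passage 22 (series 1, 6 libraries) and from passage 1 to passage 22 (series 2, 4 libraries). MNF_ciEPC (2 libraries, passage 2 and passage 3) are such cells from neonatal dermal fibroblasts by title and cell type, although their source name reads MEF. ESC_EPC (2 libraries) are endoderm progenitors from embryonic stem cells of passage 10 to 15. MEF (3 libraries) are fibroblasts of E13.5 embryos and MNF (2 libraries) neonatal dermal fibroblasts, both at passage 2. ESC (2 libraries) are OG2 embryonic stem cells at passage 5, and pHep (2 libraries) are primary hepatocytes of adult liver at passage 0. MNF, MNF_ciEPC, MNF_ciHep and pHep came from the CBA/CaJ X C57BL/6J background, and the other groups from its cross to 129Sv/Jae females. The labels do not say that libraries of a group were separate cultures or animals, so the spread between them may be technical.

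Libraries held 1439670 to 6133150 expected counts. Levels are TPM (a share of all transcripts, scaled per length of transcript) as the authors deposited them. Known markers fitted most labels: Alb averaged 1754 ± 689 TPM in MEF_ciHep (SD, n = 3) and 12969 ± 2589 TPM in pHep (n = 2), Col1a1 9329 TPM in MNF and Pou5f1 1531 TPM in ESC. MEF_ciHep also held known stomach genes at 29225 to 69656 TPM in sum, above its hepatocyte genes at 11376 to 24535 TPM. ESC_EPC held 353 and 406 TPM of endoderm progenitor markers in sum. Its pluripotency markers summed to 288 and 403 TPM, against 2465 and 2610 TPM in ESC. Markers went against 2 labels. In MNF_ciHep Alb averaged 0.28 TPM, Serpina1a and Cps1 were listed at 0 in both libraries, and the summed fibroblast markers reached 828 to 1492 TPM, against 24.8 to 45.2 TPM in MEF_ciHep. The library labelled MEF_ciEPC series 2 passage 22 held 3107 TPM of pluripotency markers and 3.09 TPM of endoderm progenitor markers. The Cdx1 levels and folds, and the counts of further intestinal genes in MEF_ciEPC over MEF, are therefore also given without it. Other MEF_ciEPC values include it unless stated.

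All 10 genes are protein-coding. On GRCm38 with GENCODE M21 annotation, Cdx2 lies on chromosome 5 (147300805 to 147307270, minus strand), Vil1 on chromosome 1 (74409376 to 74435559, plus), Fabp2 on chromosome 3 (122895072 to 122899506, plus) and Muc13 on chromosome 16 (33794037 to 33819934, plus). Chromosome 7 holds 3 members, which are Lgals4 (28833854 to 28841708, plus), Zg16 (127050156 to 127087328, minus) and Dmbt1 (131032053 to 131121630, plus). Cdh17 lies on chromosome 4 (11758147 to 11817895, plus), Tff3 on chromosome 17 (31125306 to 31129646, minus) and Cdx1 on chromosome 18 (61018862 to 61036199, minus). Whether counting used strand is not stated. If it did not, reads of Vil1 and Usp37, and of Dmbt1 and Fgfr2, which overlap on opposite strands, cannot be told apart where they overlap. Fabp2, Muc13 and Zg16 also overlap genes on the opposite strand. These are 4933405D12Rik, Gm15657 and Gm44939, with 10.96, 1.68 and 2.02 counts summed over all libraries.

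The intestinal lining is a single layer of absorptive, mucus-secreting and other cells renewed from crypts. The homeobox factors CDX1 and CDX2 maintain its identity, and CDX2 is known to bind and activate promoters of intestinal genes. Absorptive cells carry a brush border of actin-filled microvilli, goblet cells secrete the mucus layer, and galectins, mucins and trefoil factors protect the surface. Adult hepatocytes share the endoderm origin but do not normally make most of these proteins.

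Promoters of 5 of the 10 members were in the RefSeq table used (250 bases before to 50 after the start, GRCm38.p6). The 4 shown are of genes with every MEF_ciHep library above every other library, and they let the CDX-type letters TTTATG and TTTATT be seen in place. The Cdx2 promoter is not shown, as its MEF_ciHep libraries overlapped other groups. These letters, searched on both strands, are in capitals.
Vil1, chr1:74409134-74409433, plus strand: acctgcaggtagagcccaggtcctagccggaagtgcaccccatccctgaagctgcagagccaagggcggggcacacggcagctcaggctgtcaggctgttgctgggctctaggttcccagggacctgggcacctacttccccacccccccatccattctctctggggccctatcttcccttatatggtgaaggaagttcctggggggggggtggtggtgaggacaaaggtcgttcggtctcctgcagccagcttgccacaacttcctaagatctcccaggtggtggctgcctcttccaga
Fabp2, chr3:122894822-122895121, plus strand: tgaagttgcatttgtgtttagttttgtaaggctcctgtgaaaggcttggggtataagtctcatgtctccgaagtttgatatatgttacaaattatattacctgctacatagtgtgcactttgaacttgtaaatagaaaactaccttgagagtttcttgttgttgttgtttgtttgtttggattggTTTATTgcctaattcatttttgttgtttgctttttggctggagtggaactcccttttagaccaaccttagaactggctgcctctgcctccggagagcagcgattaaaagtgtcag
Lgals4, chr7:28833544-28833843, plus strand: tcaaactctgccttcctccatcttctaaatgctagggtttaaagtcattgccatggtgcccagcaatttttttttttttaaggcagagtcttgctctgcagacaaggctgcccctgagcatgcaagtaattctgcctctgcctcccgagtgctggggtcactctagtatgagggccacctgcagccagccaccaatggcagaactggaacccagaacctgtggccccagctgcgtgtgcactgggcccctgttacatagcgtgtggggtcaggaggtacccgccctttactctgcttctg
Muc13, chr16:33793787-33794086, plus strand: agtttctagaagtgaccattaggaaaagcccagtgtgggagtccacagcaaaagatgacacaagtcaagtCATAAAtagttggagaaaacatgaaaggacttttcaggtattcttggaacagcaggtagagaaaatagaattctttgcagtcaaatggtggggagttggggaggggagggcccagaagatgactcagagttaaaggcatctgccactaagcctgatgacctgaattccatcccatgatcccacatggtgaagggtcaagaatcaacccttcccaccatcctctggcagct

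Fabp2 holds TTTATT on its own strand 65 bases before the start (-65), and Muc13 holds TTTATG on the opposite strand, read as CATAAA, at -180. Either motif occurs in 27.6% of all 32851 promoters of that length (TTTATG in 11.9%, TTTATT in 19.6%). The HNF4-type letters CAAAGTCCA, in 0.475% of promoters, were found once, at -186 on the opposite strand of a second Muc13 promoter. No member promoter held the HNF1 motif (0.00913% of promoters) or TATAAA (13.6%), whose reverse complement shares the letters TTTAT with the CDX-type motifs. A match is a description of letters and not a binding site.

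The caudal factors differed from each other. Cdx2 was 5.80, 7.71 and 19.9 TPM in the 3 MEF_ciHep libraries, 3.98 and 9.57 TPM in MNF_ciHep, 8.28 and 10.5 TPM in MNF_ciEPC, and 0 to 9.39 TPM (median 2.40) over the 10 MEF_ciEPC libraries. It was listed at 0 in all MEF, MNF and pHep libraries and at no more than 0.41 TPM in ESC_EPC and ESC. Libraries of all 4 induced groups overlapped, and no induced group stood clear of the others. Cdx1 showed another pattern: it was listed at 0, 0.19 and 0 TPM in MEF_ciHep, 0.35 and 0.66 TPM in MNF_ciHep, 0.82 and 0.59 TPM in ESC_EPC, and 18.5 and 6.92 TPM in ESC. It was also 56.7 TPM in the library labelled MEF_ciEPC series 2 passage 22, while the other 9 MEF_ciEPC libraries held at most 0.45 TPM. In counts, MEF_ciHep held 1 read of Cdx1 in 3 libraries.

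Vil1 encodes villin, the actin-bundling protein of microvilli. It was 87.5, 85.7 and 59.7 TPM in MEF_ciHep, 4.24 and 9.28 TPM in MNF_ciHep, 0 to 13.9 TPM in MEF_ciEPC, 2.78 and 4.91 TPM in MNF_ciEPC, 4.10 and 4.05 TPM in ESC_EPC, 3.83 and 1.46 TPM in ESC, and 2.52 and 3.08 TPM in pHep. Every MEF_ciHep library was above every other library, and fibroblasts were lowest, at no more than 0.19 TPM in MEF and 0 in MNF. Fabp2, the intestinal fatty acid binding protein, was 32.4, 36.2 and 16.8 TPM in MEF_ciHep and 7.06 and 5.29 TPM in pHep. It was listed at 0 in both MNF_ciHep libraries, at 0.38 and 0.43 TPM in MNF_ciEPC and at 0 in 9 of 10 MEF_ciEPC libraries, so MEF_ciHep and pHep were the only groups above 1 TPM.

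Cdh17 encodes LI-cadherin, an adhesion molecule named after liver and intestine. Its highest group was pHep, with 50.1 and 26.4 TPM. It was 6.57, 7.87 and 7.12 TPM in MEF_ciHep, 1.27 and 1.96 TPM in MNF_ciHep, and 0 to 4.34 TPM in MEF_ciEPC. MEF_ciHep lay below both pHep libraries and above all others. MEF held 0.85, 1.05 and 0.81 TPM, a level that overlapped MEF_ciEPC and MNF_ciEPC.

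Lgals4 encodes galectin-4, a lectin of the apical surface. It was 405, 623 and 410.2 TPM in MEF_ciHep, 5.46 and 10.5 TPM in MNF_ciHep, 1.35 to 108 TPM in MEF_ciEPC (median 8.80), and 1.80 and 1.17 TPM in MNF_ciEPC. It had the widest low-level expression of the set, with 12.8 and 7.29 TPM in MNF, 9.68 and 8.02 TPM in ESC, and 5.36 and 13.7 TPM in pHep. Outside MEF_ciHep and MEF_ciEPC, the neighbouring groups from MNF down to ESC_EPC overlapped, and only MNF_ciEPC and MEF lay below them.

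Muc13, a transmembrane mucin, was 62.8, 9.72 and 57.1 TPM in MEF_ciHep, 1.42 and 7.64 TPM in MNF_ciHep, and 2.68 and 1.34 TPM in pHep. The MEF_ciEPC libraries held 0 to 4.81 TPM, and no library of the other groups exceeded 0.20 TPM. The MEF_ciHep library with the lowest value was thus only slightly above the higher MNF_ciHep library.

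Dmbt1 encodes a scavenger-receptor glycoprotein that is secreted at mucosal surfaces. It was 848, 429.97 and 721 TPM in MEF_ciHep, 2.73 and 10.3 TPM in MNF_ciHep, 0 to 52.1 TPM in MEF_ciEPC, and 0.18 and 0 TPM in MNF_ciEPC. All 11 libraries of ESC_EPC, MEF, MNF, ESC and pHep were listed at 0. In MEF_ciHep it ranked 115th, 301st and 156th of all genes by TPM.

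Tff3 and Zg16 are goblet cell products: TFF3 is a trefoil peptide secreted with mucin, and ZG16 a lectin-like mucus protein that binds bacteria. Tff3 was 2036, 1849.8 and 1799.7 TPM in MEF_ciHep, 1.32 and 7.54 TPM in MNF_ciHep, 0 to 53.5 TPM in MEF_ciEPC, and 41.6 and 31.0 TPM in MNF_ciEPC. The 2 pHep libraries differed, with 215 and 8.73 TPM, and the 9 libraries of ESC_EPC, MEF, MNF and ESC were listed at 0. The pHep library with more Tff3 also held more of the stomach list (1708 against 97.7 TPM summed) and of the bile duct list (2289 against 1171 TPM), whose part in this was not tested.

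Zg16 was the most abundant member, at 7041, 1498 and 3828 TPM in MEF_ciHep, where it ranked 12th, 57th and 18th of all genes. It was 2.84 and 5.29 TPM in MNF_ciHep, 0 to 52.6 TPM in MEF_ciEPC, and 14.3 and 6.12 TPM in MNF_ciEPC. Elsewhere it did not exceed 2.95 TPM, and both values there above 0 (2.95 TPM in pHep, 0.98 TPM in ESC) rest on 1 read.

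**Figure D1:**
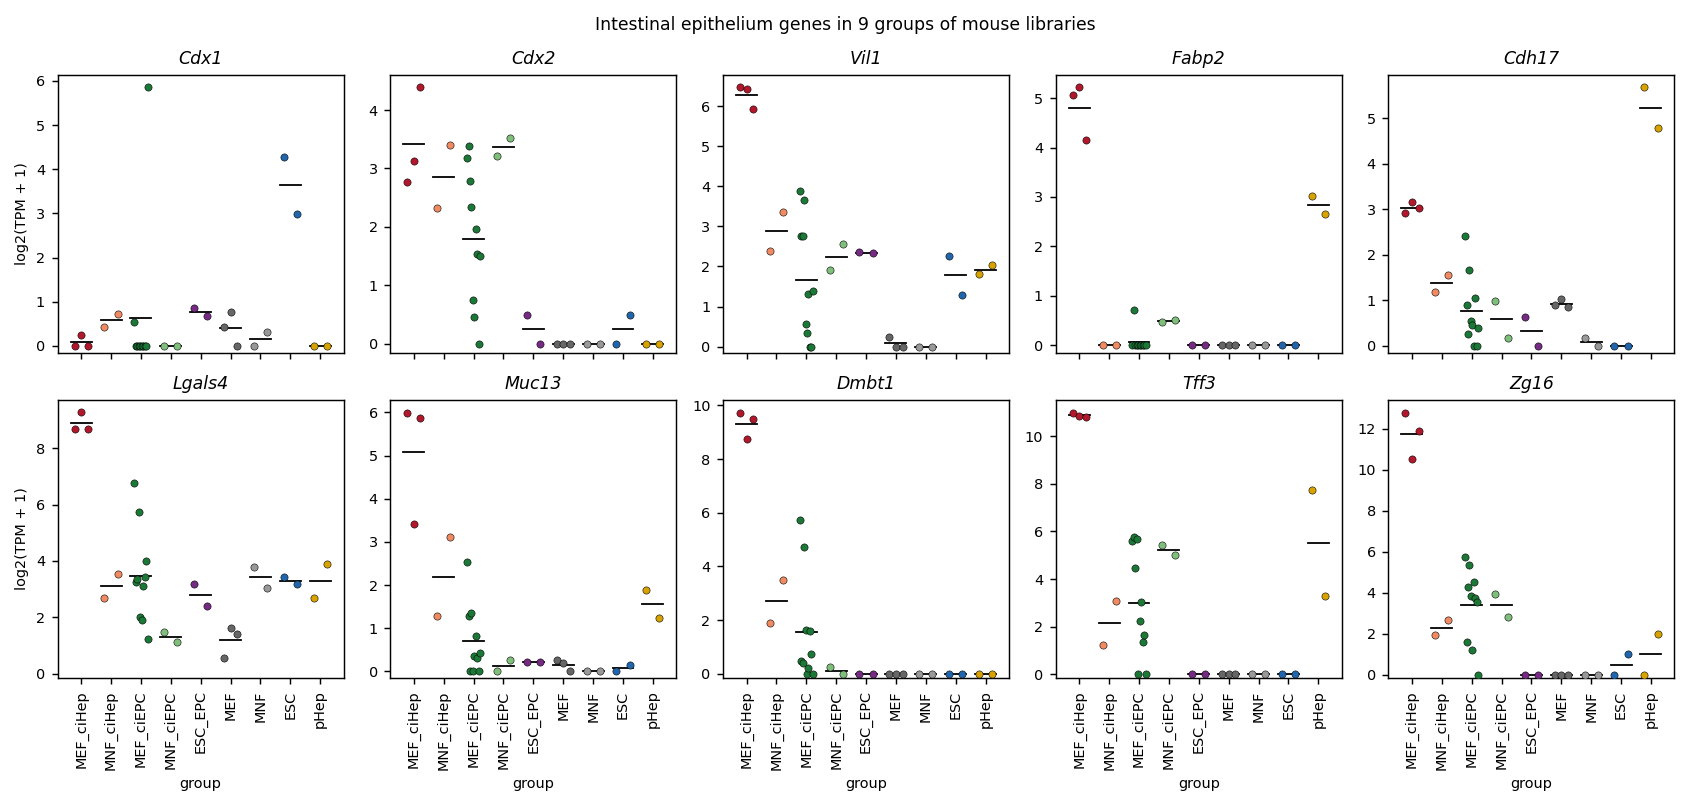
Level of each of the 10 genes in every library, as log2(TPM + 1) on the vertical axis, by group on the horizontal axis. Each point is 1 library and the bar is the mean of the group on that scale. The 3 MEF_ciHep libraries lie above all others for Vil1, Fabp2, Lgals4, Muc13, Dmbt1, Tff3 and Zg16, while Cdh17 is highest in pHep and Cdx1 in ESC and 1 MEF_ciEPC library.

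Of the 10 members, 7 had every MEF_ciHep library above each of the 25 libraries of the other groups, both in TPM and in reads scaled to the library total. Of the 25786 genes detected in some library, 3.06% showed that pattern, and since the set was chosen with such values known, the 2 shares are set side by side without a reading. The 3 exceptions were Cdh17, Cdx1 and Cdx2. Summed, the 10 genes took 1.05%, 0.456% and 0.693% of the TPM in the MEF_ciHep libraries, against 0.00237% and 0.0063% in the MNF_ciHep libraries. In bulk RNA, fewer cells expressing a gene and less of its RNA per cell cannot be told apart.

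Members varied unequally among the 3 MEF_ciHep libraries. Tff3 and Cdh17 were steady, with a coefficient of variation of 6.56% and 9.08%, and Vil1 (20.1%) and Lgals4 (26.01%) came next. Cdx2 (68.8%), Zg16 (67.5%) and Muc13 (67.5%) spread most of the detected members. The libraries did not keep one order: the second had the least Zg16, Muc13 and Dmbt1 but the most Lgals4 and Fabp2, and the third had the most Cdx2 and the least Vil1 and Fabp2. The third library also held the most of 3 trophoblast genes, with 11.3, 15.5 and 108 TPM of Elf5, 21.5, 51.3 and 159 TPM of Tfap2c and 5.28, 11.6 and 40.8 TPM of Eomes in the 3 MEF_ciHep libraries in turn. Cdx2 is also a trophoblast factor, and the part of such cells in its level was not tested. Gkn2, a gastric gene, varied by 61.5% and Alb by 39.3% over the same libraries.

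In MEF_ciEPC most members were detected at low level, and unevenly by library. In series 1, Cdx2 was 8.04, 9.39, 5.89, 4.05, 0.68 and 0.37 TPM at passages 2, 3, 4, 6, 10 and 22. In series 2 it was 2.89, 1.90, 0 and 1.82 TPM at passages 1, 5, 10 and 22. In both series the passage 10 library lay below all earlier ones, and the last value of series 2 is from the library with pluripotency markers.

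Lgals4 was 108, 8.45, 9.16, 52.7, 3.02 and 2.69 TPM along series 1, and Dmbt1 was 52.1, 0.38, 0.32, 25.1, 2.07 and 0 TPM. Zg16 was 52.6, 2.02, 18.6, 40.3, 13.1 and 1.28 TPM. Passages 2 and 6 were thus high for all 3 genes with lower values between them. Tff3 kept 47.1, 53.5, 21.0 and 50.5 TPM up to passage 6 and then 0 and 3.65 TPM. In series 2 no library exceeded 14.8 TPM of Lgals4, 2.02 TPM of Dmbt1, 7.21 TPM of Tff3 or 21.9 TPM of Zg16. With 1 library per series and passage there is no replicate at any of these points.

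**Figure D2:**
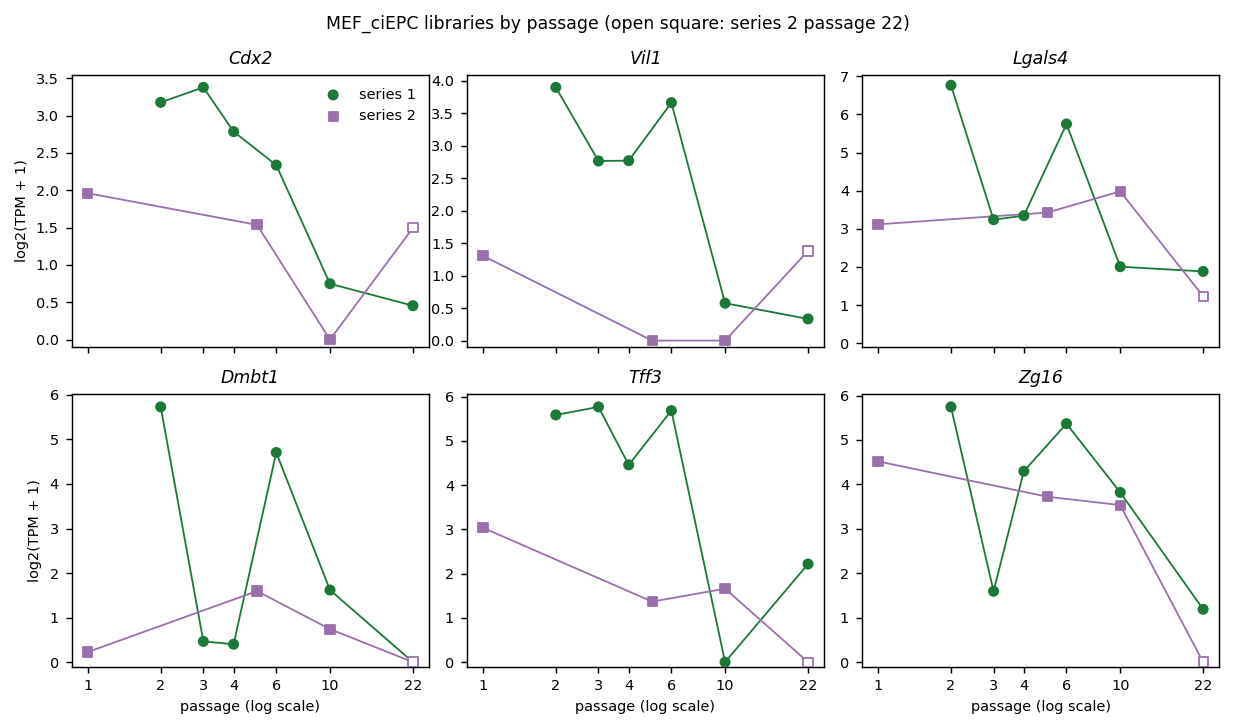
Level of 6 members in the 10 MEF_ciEPC libraries, as log2(TPM + 1) on the vertical axis, against passage on a log-scaled horizontal axis. Circles are series 1, squares series 2, and the open square is the library of series 2 at passage 22 with pluripotency markers. Lgals4, Dmbt1 and Zg16 are high at passages 2 and 6 of series 1, and Cdx2 is lower at passage 10 than at any earlier passage in both series.

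From fibroblasts to progenitors, the fitted log2 fold changes come from the model across all genes, with a standard error (SE). Where a group held no read, the fold is a lower bound, taken as if that group held 3 counts in all. Where it held 1 to 3 reads, a ratio with its exact 95% counting interval is given. Floors and intervals cover counting error only. MEF_ciEPC held 104 counts of Cdx2 and 362 of Dmbt1 against none in MEF, which makes Cdx2 at least 14.7-fold higher and Dmbt1 at least 51.2-fold higher. The library labelled series 1 passage 2 holds most of these Dmbt1 counts, and without it 95 counts remain and the bound is 15.04-fold. Zg16 was at least 17.5-fold and Tff3 at least 14.7-fold higher, and Lgals4 was higher by 3.37 ± 0.69 (log2 ± SE), or by 2.39 ± 0.56 without that library. Vil1 was 39.5-fold higher (6.91 to 1576), and Cdh17 differed by -0.30 ± 0.72.

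Between MNF_ciEPC and MNF, Cdx2 was at least 30.2-fold, Tff3 at least 22.8-fold, Vil1 at least 15.1-fold and Zg16 at least 9.27-fold higher. Lgals4 was lower in MNF_ciEPC, by a fitted log2 fold change of -2.65 ± 0.81. MNF_ciEPC held 3 reads of Dmbt1 and 1 of Muc13, so both were at the limit of detection there. In stem cell-derived progenitors, Cdx1 was lower in ESC_EPC than in ESC (-4.24 ± 1.49) and Vil1 differed by 1.80 ± 0.85. Dmbt1, Tff3 and Fabp2 had no read in either group.

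At the hepatocyte step of MEF origin, the fitted log2 fold change of MEF_ciHep over MEF_ciEPC was 8.37 ± 0.76 for Zg16, 7.14 ± 1.11 for Dmbt1, 7.07 ± 1.06 for Tff3 and 5.92 ± 0.94 for Muc13. It was 5.44 ± 0.67 for Vil1, 5.14 ± 0.53 for Lgals4, 3.32 ± 0.67 for Cdh17 and 1.96 ± 0.75 for Cdx2. Fabp2 had 166 reads in MEF_ciHep and 1 in MEF_ciEPC, a 407-fold ratio (72.1 to 16175). Each of these other members thus had a larger fold than Cdx2, whose library ranges overlapped. Without the library labelled MEF_ciEPC series 1 passage 2, the values of Dmbt1, Muc13, Lgals4 and Cdh17 were 8.75, 6.77, 6.11 and 4.01. Cdx1 had 1 read in MEF_ciHep and 97 in MEF_ciEPC, a ratio of 0.0253 (0.000634 to 0.144). Without the library labelled MEF_ciEPC series 2 passage 22, 1 read is left in each group and no fold can be given.

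At the same step of MNF origin, MNF_ciHep over MNF_ciEPC gave -0.34 ± 0.81 for Cdx2, -1.17 ± 0.90 for Vil1, -3.09 ± 1.84 for Tff3 and -1.23 ± 1.24 for Zg16. Lgals4 gave 2.34 ± 0.94 and Cdh17 1.55 ± 0.91. Muc13 was 65.0-fold higher (10.7 to 2659, 27 reads against 1) and Dmbt1 24.9-fold higher (7.75 to 127, 31 reads against 3). In MNF_ciHep 1 and 2 the 4.24 and 9.28 TPM of Vil1 rest on short transcript lengths, 464.89 and 890.28 bases against up to 3124 bases in other libraries. The deposited lengths follow the isoforms assigned in each library. In reads, MNF_ciHep held 10 of Vil1 against 57 in MNF_ciEPC. Vil1 lengths were also short in MEF_ciEPC series 1 passage 6 (690.45 bases) and ESC 1 (712.65 bases). Lengths ranged over 625.05 to 1384 bases for Lgals4 and 1141.37 to 6246.92 bases for Dmbt1, which affects their TPM.

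**Figure D3:**
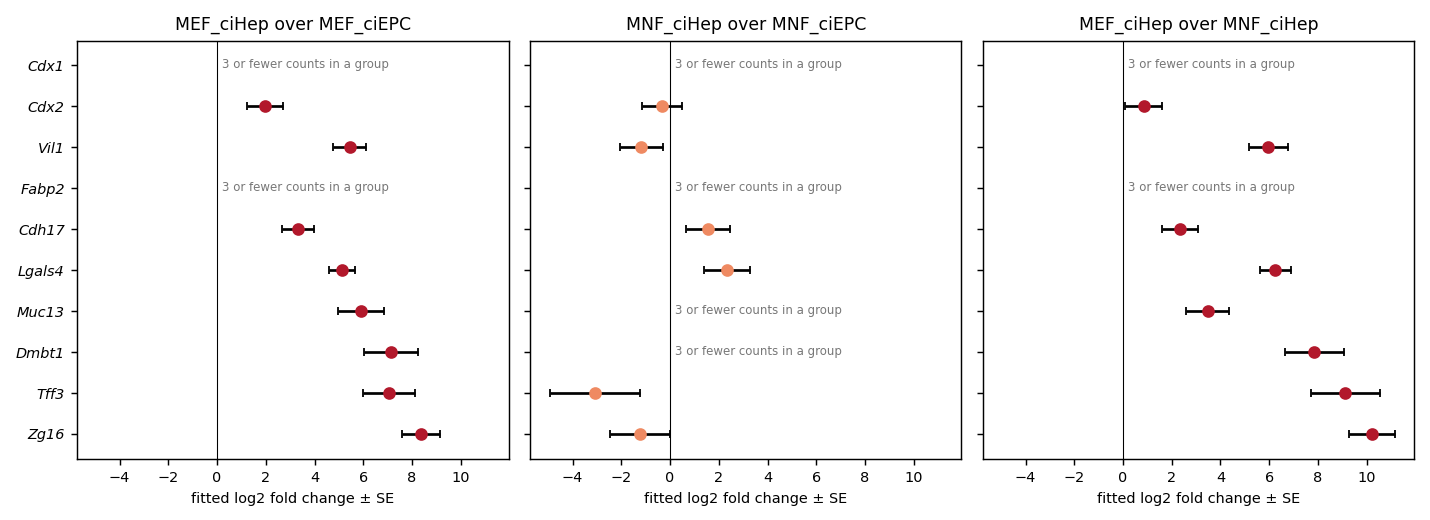
Fitted log2 fold change (points) with its SE (bars) on the horizontal axis for each member down the page, for MEF_ciHep over MEF_ciEPC, MNF_ciHep over MNF_ciEPC and MEF_ciHep over MNF_ciHep. Members with 3 or fewer counts in a group have no point. In the first panel the 8 points lie between 1.96 and 8.37, and in the second they lie on both sides of 0.

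The 2 origins share no library, so they can be set against each other directly. MEF_ciHep over MNF_ciHep gave 10.21 ± 0.94 for Zg16, 9.12 ± 1.42 for Tff3, 7.85 ± 1.22 for Dmbt1, 6.24 ± 0.63 for Lgals4 and 5.95 ± 0.80 for Vil1. It gave 3.47 ± 0.87 for Muc13, 2.33 ± 0.73 for Cdh17 and 0.84 ± 0.76 for Cdx2, and Fabp2 was at least 25.4-fold higher. Cdx2 was the detected member that differed least between these origins. Markers of other cell types moved with this contrast. The 6 hepatocyte genes summed to 11376 to 24535 TPM in MEF_ciHep against 24.5 and 98.7 TPM in MNF_ciHep, and the 8 stomach genes to 29225 to 69656 TPM against 35.2 and 198 TPM. The part of these cells in the result was not tested, and origin, mouse background and the state of the cultures cannot be told apart here.

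Against primary hepatocytes, MEF_ciHep held more of most members. The fitted log2 fold change of MEF_ciHep over pHep was 5.91 ± 0.62 for Lgals4, 5.08 ± 0.73 for Vil1, 4.25 ± 0.92 for Muc13, 3.82 ± 0.91 for Tff3 and 2.08 ± 0.63 for Fabp2. Dmbt1 was at least 2027-fold and Cdx2 at least 18.4-fold higher, and Zg16 was 4909-fold higher (881 to 193920) against the 1 read in pHep. Cdh17 was lower, at -2.54 ± 0.56. MNF_ciHep over pHep gave -4.88 ± 0.77 for Cdh17, -5.30 ± 1.61 for Tff3, -0.88 ± 1.02 for Vil1, -0.33 ± 0.82 for Lgals4 and 0.78 ± 1.03 for Muc13. Fabp2 was at least 5.77-fold lower in MNF_ciHep, Cdx2 at least 9.81-fold higher and Dmbt1 at least 8.95-fold higher. Zg16 had a ratio of 5.20 (0.630 to 239, 6 reads against 1). Both comparisons share the pHep libraries.

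Further intestinal genes were taken from 6 lists of 56 genes, which were chosen with earlier results of these data known. They are regulators (9), brush border (9), absorption and digestion (14), mucus and secretory cells (12), junction and surface (8) and crypt stem cells (4). The low-count filter kept 45 of them. It keeps genes that are high in a single group and drops genes near 0 in all groups. The counts below are therefore a description and not independent support. A gene was called with edgeR's quasi-likelihood test at a Benjamini-Hochberg adjusted p under 0.05 over 16062 genes and at least a 2-fold change. In MEF_ciHep over MEF_ciEPC, 23 of the 45 rose and 7 fell, where 17.8% of all tested genes rose and 14.8% fell, and the median log2 fold change was 1.71 for the lists and -0.07 for all genes. In MEF_ciEPC over MEF, 26 rose and 3 fell (17.6% and 15.8% of all genes), with a median of 4.13, and without the library labelled MEF_ciEPC series 2 passage 22, 27 rose and 3 fell. In MNF_ciEPC over MNF, 17 rose and 3 fell (18.4% and 21.8%), with a median of 2.56.

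In ESC_EPC over ESC, 13 rose and 9 fell (18.5% and 14.7%). In MNF_ciHep over MNF_ciEPC, 6 rose and 7 fell (19.5% and 10.8%), and the median was 0.07. In MEF_ciHep over pHep, 26 rose and 2 fell (15.1% and 10.8%), and in MNF_ciHep over pHep 11 rose and 8 fell (18.4% and 13.4%). MEF_ciHep over MNF_ciHep gave 27 higher and 6 lower (16.1% and 17.8%), with 17 and 8 when MNF_ciHep replicate 1 was left out. These comparisons share groups, so their counts are not independent of one another.

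By list, at the hepatocyte step of MEF origin, 7 of 9 tested brush border genes rose and 1 fell. Ezr, the ezrin linker of membrane and actin, was 1320 TPM on average in MEF_ciHep against 231 TPM in MEF_ciEPC, a log2 fold change of 2.88 ± 0.30 (edgeR adjusted p = 2.9e-06). Myo1a, the myosin that tethers the microvillar core, rose by 3.75 ± 0.64 (edgeR adjusted p = 0.00023). Espn, an actin bundler, fell by 2.21 on the log2 scale to a mean of 1.59 TPM in MEF_ciHep, against 11.2 TPM in MEF_ciEPC.

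Among 9 tested absorption and digestion genes 4 rose and 2 fell. Rbp2, the intestinal retinol-binding protein, was 247, 280.01 and 226 TPM in MEF_ciHep, a mean of 251 TPM against 4.01 TPM in MEF_ciEPC, and 0 in both MNF_ciHep libraries. The peptidases Dpp4 (-2.85 ± 0.42) and Anpep (-2.82 ± 0.48) fell, to 7.98 and 20.3 TPM in MEF_ciHep against 85.7 and 170 TPM in MEF_ciEPC. The disaccharidases Sis and Lct, named after their values were seen, averaged 0 and 0.08 TPM in MEF_ciHep.

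In the list of mucus and secretory cells, 5 of 9 tested genes rose and 1 fell. Clca1, a goblet cell protease, was 32.4 TPM on average in MEF_ciHep against 0.41 TPM in MEF_ciEPC (7.86 ± 0.62, edgeR adjusted p = 2.2e-06), and Reg3b, an antimicrobial lectin, 91.6 TPM against 1.21 TPM. Muc2, the gel-forming mucin of goblet cells, was named after its values were seen and averaged 2.60 TPM in MEF_ciHep against 3.62 TPM in MEF_ciEPC. Levels of Tff3 and Zg16 thus stood well above that of Muc2 in the same libraries.

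Junction and surface genes gave 5 of 8 higher and none lower. Tspan8, a tetraspanin, averaged 699.8 TPM in MEF_ciHep against 69.2 TPM in MEF_ciEPC (3.62 ± 0.27), and Krt20, a keratin of intestinal villi, 161 TPM against 0.88 TPM (7.84 ± 0.76). Krt20 was 189 TPM in pHep. Among regulators 2 of 7 rose and 1 fell: Klf5, a crypt factor, fell to 115 TPM in MEF_ciHep against 386 TPM in MEF_ciEPC, and Ascl2 rose by 3.73 ± 0.86 in MEF_ciHep, where its 3 libraries had 2.57, 2.84 and 15.6 TPM, against a mean of 0.61 TPM in MEF_ciEPC. Without the third library the MEF_ciHep mean of Ascl2, which trophoblast also makes, is 2.71 TPM in place of 7.01 TPM. Hnf4g and Atoh1, named after their values were seen, averaged 0 TPM in MEF_ciHep. Of 3 tested crypt stem cell genes none rose and 2 fell, Rnf43 and Lgr5, and Lgr5 was listed at 0 in all MEF_ciHep libraries.

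**Figure D4:**
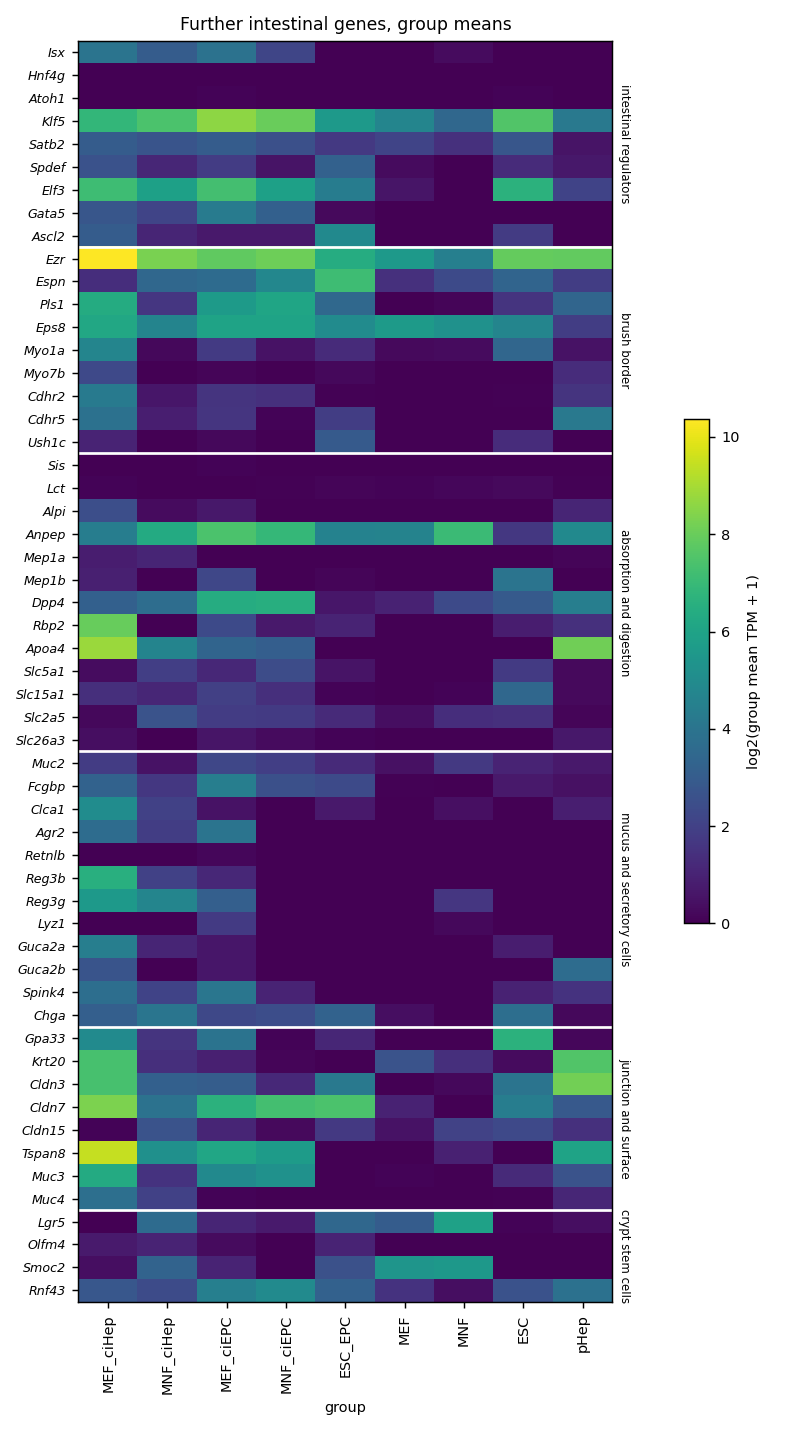
Heat map of the further intestinal genes (down the page, by list) in the 9 groups (across), coloured by log2 of the group mean TPM + 1. MEF_ciHep is brightest for Ezr, Tspan8, Rbp2 and Apoa4, while the rows of Hnf4g, Atoh1, Sis, Lct and Retnlb are dark in every group.

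Stomach, bile duct and extraembryonic genes were read in the same libraries. In MEF_ciHep, 6 of 8 stomach genes were at 1 TPM or more in each library and Gkn2 averaged 16941 TPM, Tff1 15655 TPM and Gkn1 9035 TPM, against 403, 599 and 342 TPM in MEF_ciEPC. Sox2, a stomach and foregut factor, averaged 0.05 TPM in MEF_ciHep. The 8 bile duct genes summed to 2950 to 4337 TPM in MEF_ciHep, 2188 and 2932 TPM in MNF_ciHep and 1171 and 2289 TPM in pHep. The 8 visceral endoderm genes, a lineage that also expresses villin, summed to 2652 to 7517 TPM in MEF_ciHep and 250.3 and 576 TPM in MNF_ciHep, against 506.8 to 1662 TPM in MEF_ciEPC. Afp, which fetal hepatocytes also make, was 5803, 1483 and 6255 TPM in MEF_ciHep and 1.5 and 7.18 TPM in MNF_ciHep, and so made most of the MEF_ciHep sums. Amn, an endocytic receptor subunit of that lineage, ran the other way, at 6.86, 2.70 and 7.81 TPM in MEF_ciHep and 24.1 and 44.97 TPM in MNF_ciHep, against a mean of 125 TPM in MEF_ciEPC. Lrp2 and Ihh, also of that list, averaged 18.8 and 79.9 TPM in MEF_ciHep, against 85.2 and 229 TPM in MEF_ciEPC. The 4 trophoblast genes were all at 1 TPM or more in each MEF_ciHep library and summed to 4097 to 5341 TPM there. Their sums were 245 and 688 TPM in MNF_ciHep, 67.2 to 1116 TPM in MEF_ciEPC and 1471 and 1492 TPM in ESC_EPC. In pHep they were higher, at 5186 and 7239 TPM. Krt8, a keratin of simple epithelia in general, made 4059 to 5034 TPM of the MEF_ciHep sums and 5185 and 7239 TPM of the pHep sums. Tff3, Muc13 and Dmbt1 are also made outside the intestine, and the part of these other cell types in the levels above was not tested.

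Across the 28 libraries, the Pearson r of log2(TPM + 1) between pairs of the 8 members other than Cdx1 and Cdh17 ranged over 0.34 to 0.92 in 28 pairs (median 0.80). Cdx1 was negatively related to each of the others (-0.07 to -0.36). Cdh17 had an r of 0.17 with Cdx2 and up to 0.74 with Fabp2. Over the 25 libraries other than MEF_ciHep, the same 28 pairs ranged over -0.19 to 0.71 (median 0.51). Libraries of one group may not be independent, and depth differs among libraries, so r is only a description. The genes most like Dmbt1 were 2210407C18Rik (0.96), Reg3b (0.96) and Lypd8 (0.95), and 2210407C18Rik and Lypd8 were also most like Lgals4 (0.92 each). Zg16 was most like Aplp2 (0.94) and Phgr1 (0.93), Tff3 most like Cdhr2 (0.94) and Eps8l3 (0.94), and Muc13 most like Muc4 (0.93). Vil1 was most like Myo15b (0.90), Cdx2 most like Lgals2 (0.90), Fabp2 most like Gm379 (0.99) and Afm (0.98), and Cdh17 most like Tm4sf4 (0.95).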

How the data were processed

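RNA of 28 mouse libraries was measured by sequencing (TruSeq kit, Trizol extraction, per the labels). Per the submitters' processing notes, RSEM 1.2.4 was run against mm10, and the authors deposited expected counts (not normalized) and TPM. The aligner and annotation are not given in the sources used here. The deposited FPKM was not used. Members were matched by symbol, and positions come from GENCODE M21. The members and gene lists were chosen with earlier results of these data known.

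Expected counts were rounded to whole numbers and fitted with edgeR 4.0.16 in R 4.3.3 (TMM, filterByExpr with a minimum count of 10, quasi-likelihood test) in 1 fit of 20 samples and 9 groups, with the MEF_ciEPC libraries of a series summed to 1 sample. Treating a numbered series as 1 culture is a reading of the titles. A call needs an adjusted p under 0.05 and a 2-fold change. The common biological coefficient of variation was 0.249. The fit was also run on simulated counts, with the same spread for all genes and few genes changed. These data differ from that setting, so the run does not measure the accuracy of the fit here. Totals of 1439670 to 6133150 counts limit what low genes can show. The length implied by the deposited effective lengths was 49.5 to 50.6 bases in both ciHep groups, MEF_ciEPC and pHep, 74.3 to 74.5 in MEF, MNF, MNF_ciEPC and ESC, and 186.6 to 195.7 in ESC_EPC, so several comparisons cross these classes. Counts are not whole for Cdh17 in 3 libraries and for Muc13 in 4, so some of their reads may be shared with other genes.

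Besides the 10 members, the genes named were at most 4 called genes per list and comparison with the smallest adjusted p and a group mean of at least 1 TPM, and the 3 genes most like each member. Alternatives were RLE scaling, DESeq2 1.42.0, limma 3.58.1 on log2(TPM + 1) or log2(TPM + 0.1), no filter or a minimum count of 50, a replicate block, separate MEF_ciEPC libraries, only the compared groups, and leaving out single libraries. Leaving out MEF_ciEPC series 1 passage 2, alone or with passage 6, was added after the values were seen, as were the values without MEF_ciHep, MEF_ciHep 3, pHep 1 or single MEF_ciEPC libraries beside means, bounds and r. 1 gene of the further lists is not reported here.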

Additional observations from a re-analysis of the deposited data

Results flagged for a closer look

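Single libraries of MEF_ciEPC stood far from the other 9 of the group for 5 members, in the gap to the nearest library relative to the whole range. The cut-off used gives about 1 in 20 groups by chance only for independent, normally distributed values. Skewed TPM of successive passages are not such values, so the chance rate here is not known. Series 1 passage 2 was the highest for Lgals4 (107.62 TPM, next 52.7), Dmbt1 (52.12 TPM, next 25.1), Muc13 (4.81 TPM, next 1.55) and Cdh17 (4.34 TPM, next 2.19). Series 2 passage 22 was the highest for Cdx1, at 56.68 TPM, with 0.45 TPM next.

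For 4 contrasts the libraries of the embryonic and the neonatal origin lay on opposite sides of their references, and the difference between origins was not tested. Tff3 was 1876.43 TPM higher in MEF_ciHep than in MEF_ciEPC on average, and differed by -31.875 TPM between MNF_ciHep and MNF_ciEPC. It was 1783.01 TPM higher in MEF_ciHep than in pHep, and differed by -107.665 TPM between MNF_ciHep and pHep. The pHep mean rests on 1 of its 2 libraries (215 and 8.73 TPM), and without that library the MNF_ciHep difference is -4.30 TPM. Zg16 was 4104.95 TPM higher in MEF_ciHep than in MEF_ciEPC, and differed by -6.135 TPM between MNF_ciHep and MNF_ciEPC. Fabp2 was 22.275 TPM higher in MEF_ciHep than in pHep, and differed by -6.175 TPM between MNF_ciHep and pHep.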

How the results depend on the processing

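Over the 8 comparisons, the count of called genes stayed within 1.5 times in 131 cases, each being 1 comparison under 1 alternative. The exception was MNF_ciHep over pHep with only the 2 compared groups in the fit, with 3172 calls (1722 higher, 1450 lower) against 5103. The fitted Cdx1 differences, which rest on few reads, changed sign with the library labelled MEF_ciEPC series 2 passage 22. Without it, or without MEF_ciEPC replicate 2, which holds it, MEF_ciEPC over MEF gave -2.49 and -2.09 against 3.73, and MEF_ciHep over MEF_ciEPC gave 0.80 and 0.41 against -5.43. Leaving out 1 replicate at a time, these 2 ranged over -2.09 to 4.81 and over -7.57 to 0.41. Elsewhere the members' fitted folds moved by no more than their SE in 1141 cases and by more in 123. Equal replicate numbers did not mark paired libraries (of 73 same-numbered pairs 0 had a residual correlation above 0.1), and with a replicate block MEF_ciHep over MEF_ciEPC had 4888 calls against 5249. For the 45 further intestinal genes, MNF_ciHep over MNF_ciEPC had 11 higher with limma on log2(TPM + 0.1) and 10 of 55 with no filter, against 6, and MNF_ciHep over pHep 19 with limma on log2(TPM + 0.1) against 11; the causes were not tested. With a pseudocount of 0.1, none of the 3 genes most like Zg16 was shared. Depth limits Vil1, Tff3, Zg16 and Cdx1 in MNF_ciHep, which rest on 10, 4, 6 and 2 reads.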
